A study of Mus musculus with 60 samples.

Results

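Of the 2799 circular RNAs (circRNAs) listed over 5 mouse organs, 289 stood in the brain table and in 3 or 4 of the heart, kidney, liver and spleen tables. They were chosen by listing alone: the same chromosome, start and end had to appear, to the base, in each table counted. All 5 tables listed 133 of them, and 156 were in brain plus 3 others. Of those 156, 106 were missing from spleen, 26 from liver, 16 from heart and 8 from kidney. The 289 account for 1289 table entries. The remaining brain circRNAs were in 0 other tables (1101), in 1 (306) or in 2 (160), and 943 circRNAs were not in the brain table.

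A circRNA forms when the splicing machinery joins the end of an exon backwards to the start of the same or an earlier exon, which closes the RNA into a ring. Having no free ends, circRNAs resist exonucleases such as RNase R, which degrades linear RNA, and they tend to be long-lived. Brain is known for a large and varied set of circRNAs, many of them made from genes of neurons. FTSJ1 is a methyltransferase that adds a methyl group to the ribose of certain nucleotides in the anticodon loop of transfer RNAs, and loss of the human gene is known as a cause of intellectual disability.

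The study set Ftsj1-deficient mice (labelled Ftsj1_DF) beside wild-type mice (WT), asking how circRNAs differ between them in whole brain, heart, kidney, liver and spleen. There were 3 mice per genotype, all male, untreated and 4 months old. The labels name 4 of the mice as brothers and the other 2 as brothers. The 5 organs came from the same 6 mice, and each of the 30 mouse and organ pairs has 2 samples, labelled batch 1 and batch 2 under 1 library name, which gives 60 samples. The labels say that 2 batches were made because of a low read count in batch 1. The sources used here do not say how the deficiency was made or on which strain. RNA was depleted of ribosomal RNA, polyadenylated and treated with RNase R before library construction. The values are the authors' own comparison, given as 1 table per organ with no values per library. The depth of each library is therefore unknown, no standard deviation between mice can be given, and neither the level of Ftsj1 nor tissue markers could be checked. The p-values measure only the spread between these samples. The tables do not pair circRNAs with gene names, and positions are on GRCm39. No source used here says which genotype the fold change has as its numerator. Signs are therefore printed as deposited, and a positive value is not read as more circRNA in either genotype.

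Broad listing went with high abundance. Low expression had been removed from each table by the authors, so abundance helped to choose the members, and their levels are a description with no test. Abundance is given as the percentile of the mean normalized count within a table, 0 for the lowest and 100 for the highest. The counts are not scaled to length, and levels are not compared between tables. In brain the median member was at percentile 83.9 (quartiles 65.4 to 94.0). It was at 76.2 in kidney, 73.1 in liver, 71.2 in heart and 66.4 in spleen. The share of rows that were members also differed between organs, and it bears on these percentiles. The median mean normalized count of the members in the authors' deposited tables was 12.2 in brain, where that of the other circRNAs was 3.40. It was 5.59 beside 2.16 in heart, 7.24 beside 2.56 in kidney, 18.0 beside 7.27 in liver and 4.77 beside 1.81 in spleen.

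The members held more of the summed mean normalized count than of the rows. In brain they were 15.6% of the rows and 41.9% of the sum. In heart 41.1% of the rows held 64.9% of the sum, and in spleen 59.4% of the rows held 84.8%. Kidney gave 28.2% and 51.4%, and liver 29.2% and 56.4%. Among the 10 most abundant circRNAs of a table, 8 were members in brain, heart and kidney, 9 in liver and 10 in spleen. Still, 11 of the 289 lay in the lowest quartile of the brain table and 30 in the next, against 182 in the highest.

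At the edge of the rule the step was modest. Brain circRNAs in 2 other tables, just outside, had a median percentile of 61.5 and a median mean normalized count of 5.15. Those in 3 others, just inside, had 73.0 and 7.42, and those in all 4 others had 91.7 and 20.2. Members in all 5 tables also stood above those in brain plus 3 in the other organs: 82.7 against 55.5 in heart, 86.1 against 65.6 in kidney, 84.4 against 62.9 in liver and 71.7 against 46.1 in spleen, as median percentiles.

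**Figure D1:**
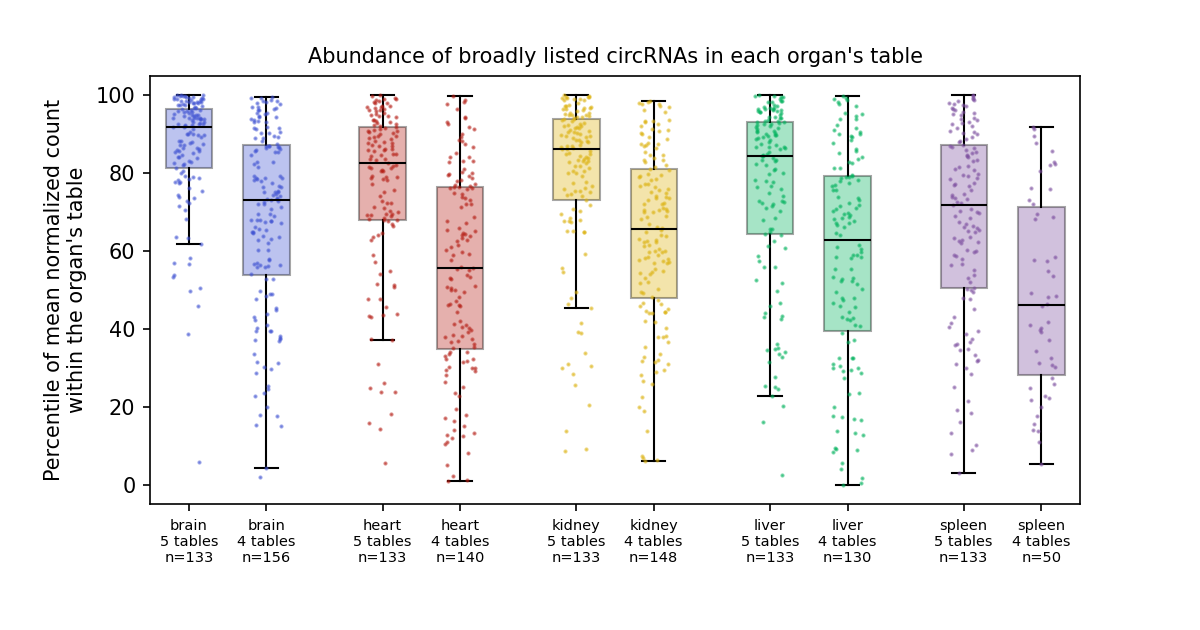
Percentile of the mean normalized count within each organ's table for the 133 members in all 5 tables and for those in brain plus 3 others (4 tables). Points are circRNAs, boxes give the median and quartiles, and whiskers reach the last point within 1.5 box lengths. The median is higher for 5 tables than for 4 in each organ, and both sets span a wide range.

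A small set was abundant everywhere. The circRNA at chr1:87291826-87307730 had the highest mean percentile, 99.5. Its mean normalized counts in the authors' deposited tables were 364.5 (brain), 51.8 (heart), 127.1 (kidney), 288.8 (liver) and 129.7 (spleen), which put it at ranks 1, 10, 2, 6 and 2. The circRNA at chr5:118731398-118731635, with a span of only 238 bases, had 310.7, 58.3, 75.1, 338.7 and 96.6 in the same order of the authors' deposited tables, at ranks 2, 7, 6, 5 and 3. That at chr2:70600348-70617339 was at ranks 6, 8, 5, 3 and 4, the narrowest range of percentiles of any member (0.833 points). The 2 others with the highest means were at chr7:58890715-58896965 (ranks 30, 3, 10, 1 and 12) and chr6:88332465-88335624 (ranks 16, 15, 13, 15 and 9). In all, 49 members were in the highest quartile of every table that lists them.

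The leading member differed between organs. Among the members, brain and kidney were led by chr1:87291826-87307730 and liver by chr7:58890715-58896965, which had a mean normalized count of 684.2 in the authors' deposited liver table. Heart was led by chr11:6263788-6267080, with 164.3 in the authors' deposited heart table and rank 128 in brain. In spleen chr11:11650205-11657904 came first, with 199.5 in the authors' deposited spleen table. It was at rank 3 in brain, where it had 243.2, but only at ranks 71 in heart, 134 in kidney and 67 in liver. That brain entry has a log2 fold change of 9.73 (SE 2.21) and no p in the authors' deposited table. Its mean and rank in brain therefore need not hold for both genotypes.

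Being listed broadly did not mean a similar rank in each organ. The distance between a member's highest and lowest percentile had a median of 39.5 points (quartiles 23.4 to 57.3), was under 10 for 23 members and over 50 for 99. The highest percentile fell in brain for 128 members, liver for 65, kidney for 57, heart for 36 and spleen for 3. The lowest fell in heart for 86, spleen for 75, liver for 61, kidney for 43 and brain for 24. A percentile is relative to the other rows of its table, and members were 15.6% of the rows in brain and 59.4% in spleen. What part this has in these distances and counts was not tested. The widest distance, 92.0 points, was that of chr11:62037132-62052736, at rank 121 of 1856 in brain and 886 of 900 in liver. At chr8:65264332-65287220 the circRNA was likewise at rank 70 in brain and 826 in liver. Others were near the bottom of the brain table. That at chr4:43087903-43101874 was at rank 1821 in brain and 67 of 664 in heart, and that at chr14:76007611-76008973 was at rank 1747 in brain, 85 of 996 in kidney and 76 in liver. The circRNA at chr15:81515815-81516713 was at rank 97 in kidney and 299 of 308 in spleen.

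Members spanned less of the genome than other brain circRNAs. Span runs from the first to the last base of the circRNA on the genome and takes in any introns, which the ring itself may lack. The median span was 3862 bases (quartiles 1372 to 10982), against 6503 bases (1960 to 18650.5) for the other 1567 circRNAs of the brain table and 5906 for all 2799. Spans of at least 50000 bases were found in 2.08% of the members (6) and in 6.96% of the other brain circRNAs. Spans under 1000 bases made up 19.4% and 15.9%. They made up 24.8% of the members in all 5 tables and 14.7% of those in brain plus 3. From the lowest quartile of brain abundance up, members and others had 9.09% and 12.8%, 6.67% and 17.3%, 15.2% and 16.8%, and 23.6% and 17.4%. Median span fell in steps with the number of other tables, from 6593 bases with 0 through 6421.5, 6188 and 4352 to 3470 with 4. Span was not used by the rule, but abundance was, and no test was made. Within quartiles of brain abundance the members' median span was below that of the others in each: 3696 against 6403 bases in the lowest, where only 11 members fell, 6062.5 against 6420.5 in the next, 3243 against 6545.5, and 4171.5 against 6768 in the highest.

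**Figure D2:**
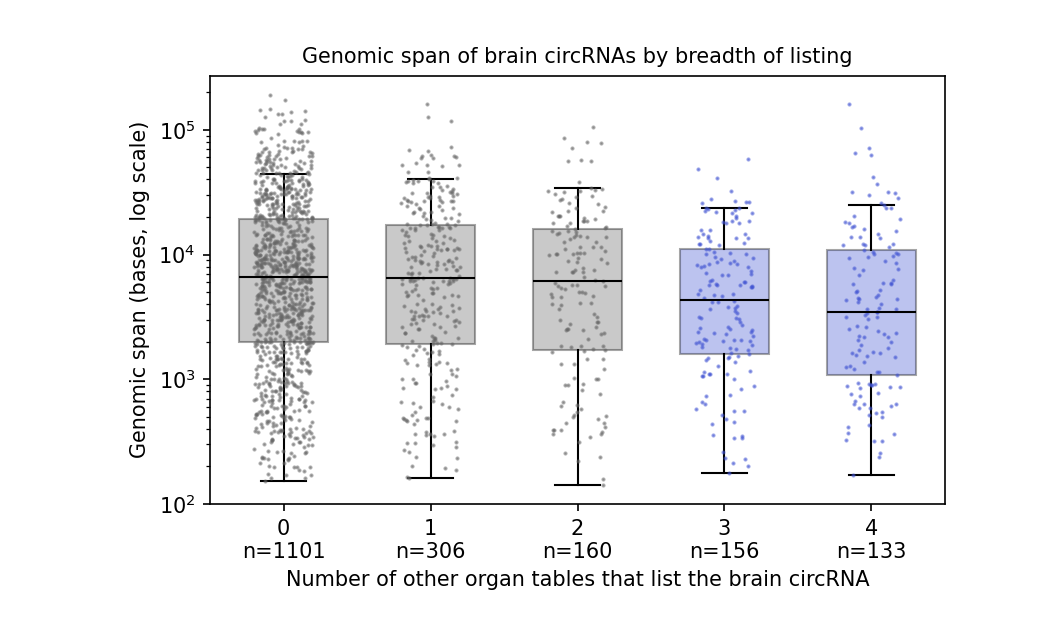
Genomic span in bases (log scale) of the 1856 circRNAs of the brain table, by the number of other organ tables that list them; the members are at 3 and 4. Points are circRNAs and boxes give the median and quartiles, with whiskers to the last point within 1.5 box lengths. The median is 6593 bases at 0 and 3470 at 4, with wide overlap of the 5 sets.

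The extremes of span were in part also abundant. The longest member, chr13:45948985-46110051, covered 161067 bases, and its neighbour chr13:46005804-46110051, which ends at the same base, covered 104248. Both were among the 20 highest ranks in brain (9 and 15), and in spleen they were at ranks 11 and 23. Next in length, chr18:5633204-5705243, covered 72040 bases and was at rank 224 in brain but 905 in kidney. The shortest were chr10:77466560-77466728 with 169 bases, chr1:63187555-63187730 with 176 and chr10:40130260-40130460 with 201. That of 176 bases was at rank 10 in liver and 875 in brain.

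The members came from many places. Overlapping members were joined into loci, and the 289 fell into 265 loci, of which 243 held 1 member. No locus held more than 3. Members were 15.6% of the brain circRNAs. Chromosome 2 had 25 members among its 162 brain circRNAs, chromosome 4 had 21 of 117 and chromosome 6 had 21 of 104. For chromosome 19 it was 14 of 54, for chromosome X 2 of 24 and for the Y chromosome 0 of 1. A start or an end was shared with another member by 42 members, in 23 pairs (8 with a shared start and 15 with a shared end). The shorter circRNA of the pair was the more abundant in every organ that lists both in 7 pairs, the longer in 6, and the order differed between organs in 10. Sharing a start or an end with any other brain circRNA was about as frequent for members (105, or 36.3%) as for the others (515 of 1567, or 32.9%).

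One locus of 3 members shows such an order turning between organs. The members chr18:39253172-39283171, chr18:39259886-39283171 and chr18:39253172-39265203 overlap; the first shares its end with the second and its start with the last. In the authors' deposited brain table they had mean normalized counts of 28.5, 100.2 and 7.18, and in the one for heart they had 28.1, 42.5 and 14.6. The authors' deposited kidney table reversed the first and the second, with 21.1 and 5.48, beside 7.01 for the last. The other locus of 3 lies at one start on chromosome 19. Its members chr19:6391933-6392687, chr19:6391933-6392816 and chr19:6391933-6393206 had 15.5, 6.25 and 13.3 in the authors' deposited brain table, and 5.24, 4.79 and 8.18 in the spleen table. The shortest of the 3 led in brain and the longest in spleen.

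In the comparison of the genotypes no member was called at an adjusted p below 0.05 (authors' DESeq2 test) in any organ. Over the whole tables the share called was 0% in brain, heart, kidney and spleen, and in liver it was 0.170%, a single circRNA that is not a member. At an unadjusted p below 0.05 the share of members called is given beside that of the whole table, and the counts are small in each organ but liver. In brain 5 of 287 members with a p were called with a positive sign (1.74%, and 0.648% of all brain entries) and 0 with a negative sign (1.40% of all). In heart it was 5 of 273 positive (1.83%, and 1.81% of all heart entries) and 3 negative (1.10%, and 1.05% of all). In kidney 3 of 279 were positive (1.08%, and 1.82% of all kidney entries) and 0 negative (0% of all). In liver 3 of 260 were positive (1.15%, and 0.453% of all liver entries) and 20 negative (7.69%, and 8.61% of all). In spleen 0 of 168 were positive (1.37% of all spleen entries) and 2 negative (1.19%, and 0.685% of all).

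The liver list needs a closer reading. Of its 20 negative members, 18 had a fold change very large for their mean count, defined as an absolute log2 fold change above the log2 of the mean normalized count by more than 2. Such entries made up 11.0% of the members in liver (29) and 15.0% of the liver table, and in the other organs 1 or 2 members each. Without them 5 members remained at an unadjusted p below 0.05 in liver. They are defined by the size of the fold change, so this fall follows in part from the definition. The smallest liver p was that of chr5:66520061-66522463, with a log2 fold change of -6.55 (SE 1.80), p = 0.000285 and an adjusted p of 0.0610 by DESeq2 in the authors' deposited table. Its mean normalized count there was 11.6. At an adjusted p below 0.1, 6 liver members passed (2.71% of those with an adjusted p), beside 2.90% of the liver entries with one. A p without an adjusted p was given for 39 of the 260 members with a p in liver, which therefore could not be called there. Over the whole liver table it was 296 of 883.

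An unadjusted p below 0.05 was found in no organ for 250 members, in 1 organ for 37 and in 2 organs for 2. At least 1 organ passed for 13.5% of the members, beside 10.1% of the 969 circRNAs with a p in at least 2 tables, many of which had fewer tables in which to pass. At least 2 organs passed for 0.692% and 0.413%. The 2 members with 2 organs had opposite signs in the 2 organs. At chr4:140895024-140907843 the log2 fold change in the authors' deposited tables was 4.83 (SE 1.73) in kidney and -6.21 (SE 2.02) in liver, beside 2.24 (SE 2.01) in brain and -0.92 (SE 2.14) in spleen. At chr5:23745373-23770263 it was 1.25 (SE 0.62) in heart and -5.23 (SE 2.34) in liver in the authors' deposited tables, beside -0.89, 0.51 and 1.12 in brain, kidney and spleen. Both liver values are among those very large for the mean count, 9.42 and 4.84 in the authors' deposited table.

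The smallest p of each sign in the other organs was of the same modest kind. In the authors' deposited brain table chr5:137310136-137310495 had 5.11 (SE 2.00) at a mean normalized count of 2.87, and chr2:104301094-104302192 had -2.13 (SE 1.23). The authors' deposited heart table gave chr2:25855675-25856960 a log2 fold change of 2.40 (SE 0.93) and chr2:69744758-69753277 one of -4.46 (SE 1.87). The authors' deposited kidney table gave -2.13 (SE 1.38) for chr15:58840688-58844409. The positive extreme in liver was chr9:72499033-72500642, with 1.76 (SE 0.70) in the authors' deposited table. In the authors' deposited spleen table the extremes were 2.42 (SE 1.85) for chr18:35743924-35746555 and -4.67 (SE 2.02) for chr2:24703539-24715079. The adjusted p of the authors' DESeq2 test was 0.199 for the liver value and between 0.996 and 1.00 for the others.

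The members' fold changes were shifted to one sign in 2 organs. In brain the median log2 fold change of the members was 0.45, with 65.4% positive, against -0.27 and 41.3% for the other brain circRNAs. In spleen it was -0.91, with 23.5% positive, against 0.21 and 53.6% for the others. In the 3 other organs members and others lay closer: 0.06 and 0.19 in heart, 0.07 and 0.27 in kidney, and -0.21 and -0.23 in liver. The circRNAs of a table share libraries and normalization, and these medians carry no test. In whole-organ RNA, fewer cells of a type and less RNA per cell cannot be told apart.

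Both shifts followed the listing beyond the members themselves. The median brain log2 fold change was -0.36 for circRNAs in 0 other tables, -0.07 in 1, -0.15 in 2, 0.21 in 3 and 0.64 in 4. Listing in spleen went with the more positive brain values: 0.64 for the 183 members in the spleen table and 0.09 for the 106 that were not, 0.92 for the 42 other brain circRNAs in the spleen table and -0.30 for the remaining 1525. In the spleen table the 42 non-members also in brain had a median of -0.88, close to the members, and the 83 not in brain had 0.46. Abundance moves with listing as well. Within quartiles of brain abundance, from the lowest up, the medians of members and others were 0.43 and -0.21, 0.28 and -0.15, 0.91 and -0.22, and 0.30 and -0.46. Within those of spleen abundance they were -0.68 and -0.03, -1.08 and 0.02, -0.91 and 1.23, and -1.10 and 0.10, the last with only 7 others. What part abundance, depth or normalization has in the shifts was not tested.

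**Figure D3:**
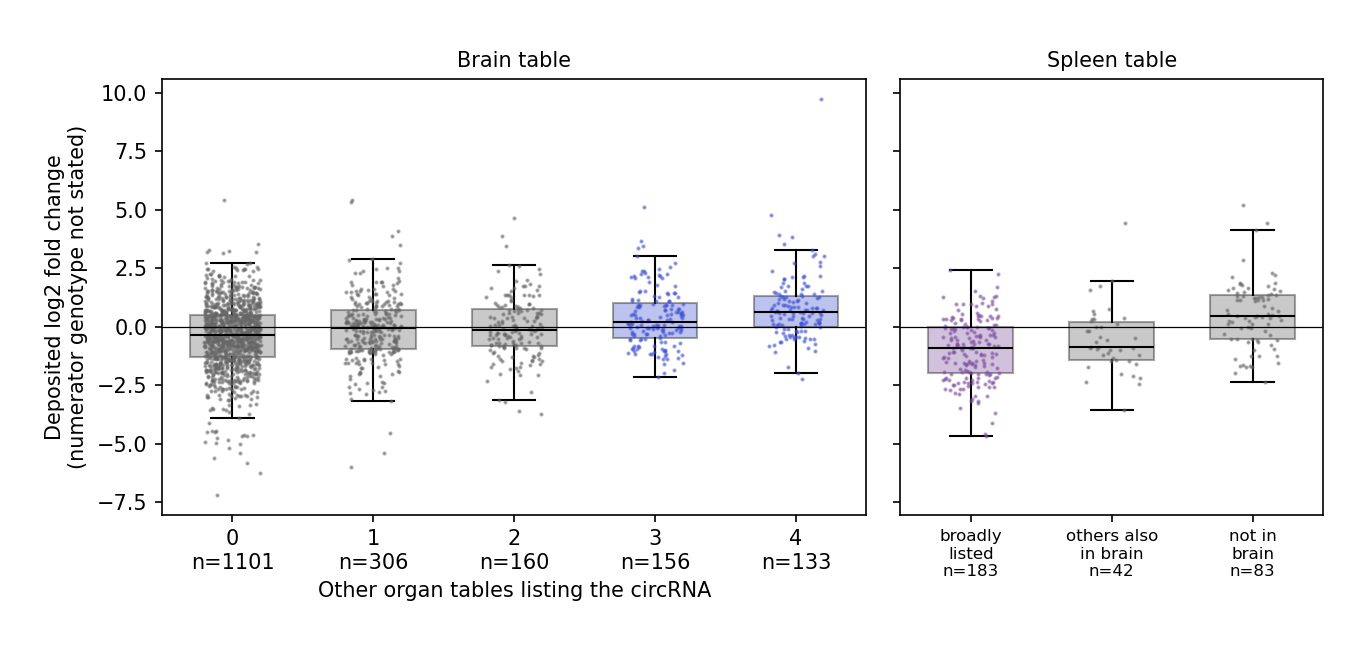
Deposited log2 fold change of each circRNA in the brain table, by the number of other organ tables that list it (left; the members are at 3 and 4), and in the spleen table for the members, the other circRNAs also in brain and those not in brain (right). Boxes give the median and quartiles, with whiskers to the last point within 1.5 box lengths; the numerator genotype is not stated. The brain median moves from -0.36 at 0 to 0.64 at 4, and the spleen medians are -0.91, -0.88 and 0.46.

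Entries without a p were concentrated among the members in spleen. Of the 43 entries with a fold change but no p in the 5 tables, 22 were members, 15 of them among the 16 of the spleen table. Members were 59.4% of the spleen rows. In brain 2 of 3 such entries were members, which made up 15.6% of the rows. In kidney it was 2 of 7 (28.2% of the rows) and in liver 3 of 17 (29.2%). Of the 15 spleen members without a p, 14 had a negative sign, as had 140 of all 183 spleen members. The 15 had log2 fold changes from -4.58 to 0.36 in the authors' deposited spleen table, at ranks 2 to 187. One was the member with the highest mean percentile, chr1:87291826-87307730, with -2.72 (SE 1.38) in the authors' deposited spleen table. In brain, chr11:11650205-11657904 had 9.73 (SE 2.21) and no p in the authors' deposited table, while its other organs gave 0.46 (SE 0.58) in heart, 0.72 (SE 1.10) in kidney, 1.34 (SE 0.85) in liver and 0.97 (SE 1.53) in spleen. No source used here says why these entries lack a p.

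The members had smaller SEs than the tables as a whole, and they were also more abundant. Their median SE of the log2 fold change was 0.93 in heart, 1.22 in kidney, 1.44 in liver, 1.51 in brain and 1.76 in spleen, against 1.56, 1.67, 2.06, 1.84 and 1.95 over the whole tables. In brain the median SE fell with abundance, and within abundance quartiles the gap was smaller. From the lowest up, members and others had 2.07 and 2.17, 1.96 and 1.98, 1.68 and 1.68, and 1.39 and 1.504. Over the whole brain table they had 1.51 and 1.92. What part abundance has in the gap was not tested. A 95% interval wholly within a 2-fold change either way was still rare. In heart 15 of 273 members had one, beside 5 of 391 others, and in liver 3 of 263, beside 0 of 637. In brain, kidney and spleen 0 circRNAs had one, members or others.

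To ask whether a member gave like values over organs, the deposited log2 fold changes with a p were combined into a mean weighted by 1/SE squared, for the 969 circRNAs with at least 2 such estimates, all 289 members included. The organs came from the same mice, so their errors need not be independent. No weighted mean passed an adjusted p of 0.05 (normal approximation, Benjamini-Hochberg), members or others (0%). At an unadjusted p below 0.05 there were 6 members (2.08%), 4 positive and 2 negative, beside 2.48% of all 969. The members' weighted means had a median of 0.02 (quartiles -0.25 to 0.36) and ran from -1.82 to 1.28, with a median SE of 0.59, against 1.17 for the 680 others. The 95% interval lay wholly within a 2-fold change in 49 members and in 3 of the 680 others. Both contrasts follow in part from the rule. It asks for brain and at least 3 other organs, others needed only 2 estimates, and each estimate added lowers the SE of a weighted mean.

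For the best measured members this bounds the weighted mean over organs, though not the difference between genotypes in each organ. At chr11:6263788-6267080, the leader in heart, the weighted mean was -0.13 (SE 0.20, 95% interval -0.52 to 0.27). It was -0.03 (SE 0.23, -0.48 to 0.43) at chr10:120661013-120687997, which is second in heart and not in the spleen table. It was -0.37 (SE 0.23, -0.82 to 0.09) at chr5:118731398-118731635, and 0.07 (SE 0.24, -0.40 to 0.55) at chr2:70600348-70617339. At chr7:58890715-58896965 the interval ran from -0.46 to 0.46. All 5 intervals exclude a 2-fold change of the weighted mean in either direction, as far as the deposited errors hold and are independent between organs. Values of single organs were less certain. In the authors' deposited tables chr5:118731398-118731635 had -1.59 (SE 1.39) in spleen, and chr7:58890715-58896965 had 0.80 (SE 1.49) in brain. Most of the weight came from heart, where the SE of these 5 circRNAs was between 0.23 and 0.32 in the authors' deposited table.

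**Figure D4:**
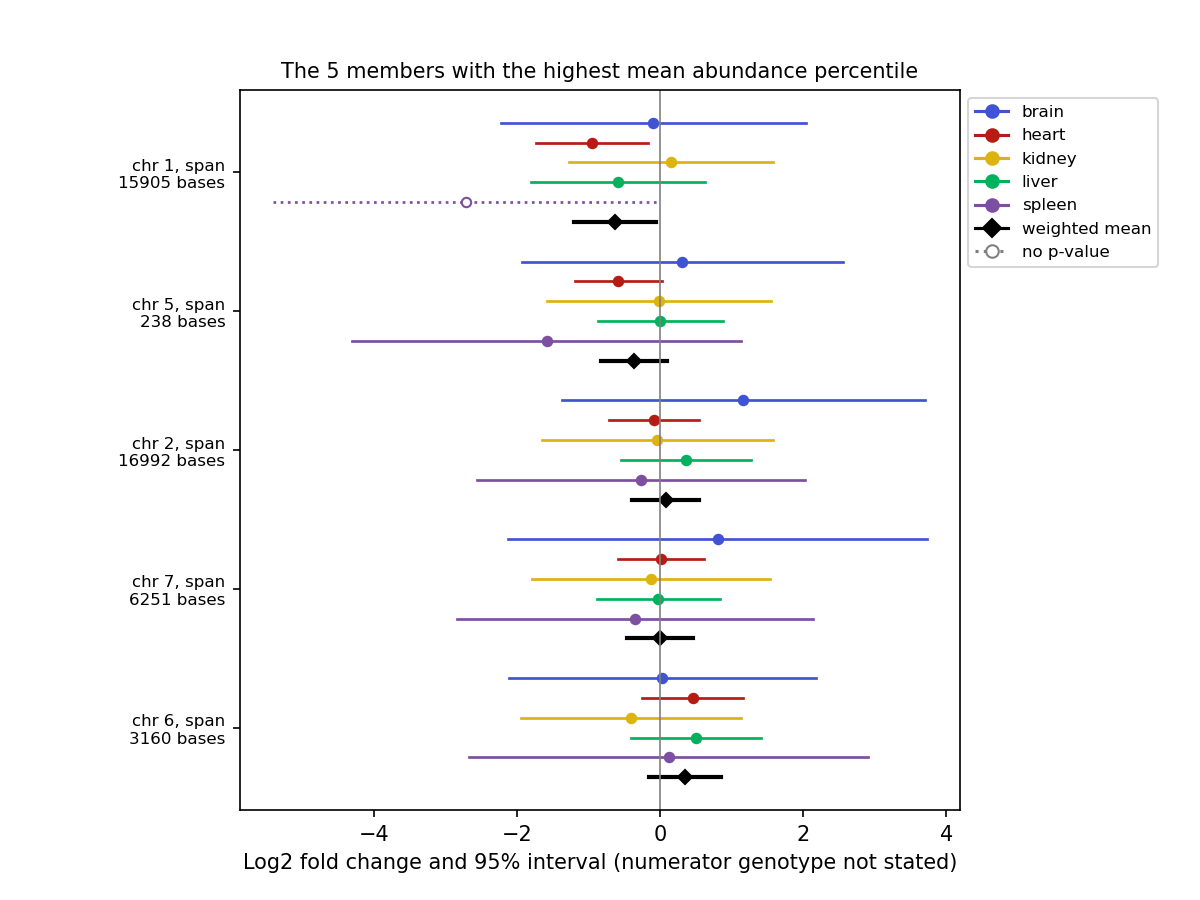
Deposited log2 fold change with its 95% interval in each organ, and the weighted mean over organs, for the 5 members with the highest mean percentile, named by chromosome and span. A dotted line with an open point marks an entry with no p, which is not in the weighted mean; the numerator genotype is not stated. The heart and liver intervals are the narrowest, and brain and spleen intervals reach more than 1 log2 unit to at least one side.

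The smallest p over organs with a positive sign were those of chr12:69870196-69872557 with a weighted mean of 1.20 (SE 0.49), chr6:47553470-47554601 with 1.11 (SE 0.47) and chr6:134039027-134043428 with 0.95 (SE 0.48), and each was positive in all 5 organs. The first had 2.77, 1.24, 0.83, 0.40 and 1.27 in the authors' deposited tables for brain, heart, kidney, liver and spleen. The negative ones were chr15:61978997-61979314 with -1.38 (SE 0.62), chr1:87291826-87307730 with -0.63 (SE 0.29) and chr2:69744758-69753277 with -1.74 (SE 0.92). Of these, chr15:61978997-61979314 was positive in brain (0.19) and most negative in liver (-4.97) in the authors' deposited tables. At chr1:87291826-87307730 the sign was positive in kidney (0.15) and negative elsewhere, from -0.10 in brain to -0.95 in heart among entries with a p in the authors' deposited tables. The unadjusted p of the 6 ran from 0.0142 to 0.0589 and each adjusted p was 1.00. Without heart, the weighted mean of chr1:87291826-87307730 went to -0.25 (SE 0.43), and without liver that of chr15:61978997-61979314 went to -0.73 (SE 0.68). Without heart, that of chr2:69744758-69753277 went to -0.87 (SE 1.06); its heart value is very large for the mean normalized count of 2.37 in the authors' deposited table.

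Differences between organs within a member were tested with Cochran's Q, which asks whether the estimates spread more than their SEs. No circRNA of the 969 passed an adjusted p of 0.05 (0%), and the smallest adjusted p, 0.344, was that of chr4:140895024-140907843. At an unadjusted p below 0.05 there were 9 members (3.11%), beside 3.92% of all 969. In 8 of the 9 the liver estimate was the lowest and was very large for its mean count, and without such entries 0 members were left. Such entries are defined by the size of the fold change. Leaving them out takes away far-lying estimates, so this fall follows in part from the definition. After chr4:140895024-140907843 the smallest p were those of chr16:62647527-62651176, with -6.25 (SE 1.89) in liver beside 2.40 (SE 1.55) in brain in the authors' deposited tables, and of chr5:66520061-66522463, with -6.55 (SE 1.80) in liver beside -0.59, -0.13 and 0.28 in brain, heart and kidney. What part low liver counts have in these spreads was not tested.

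**Figure D5:**
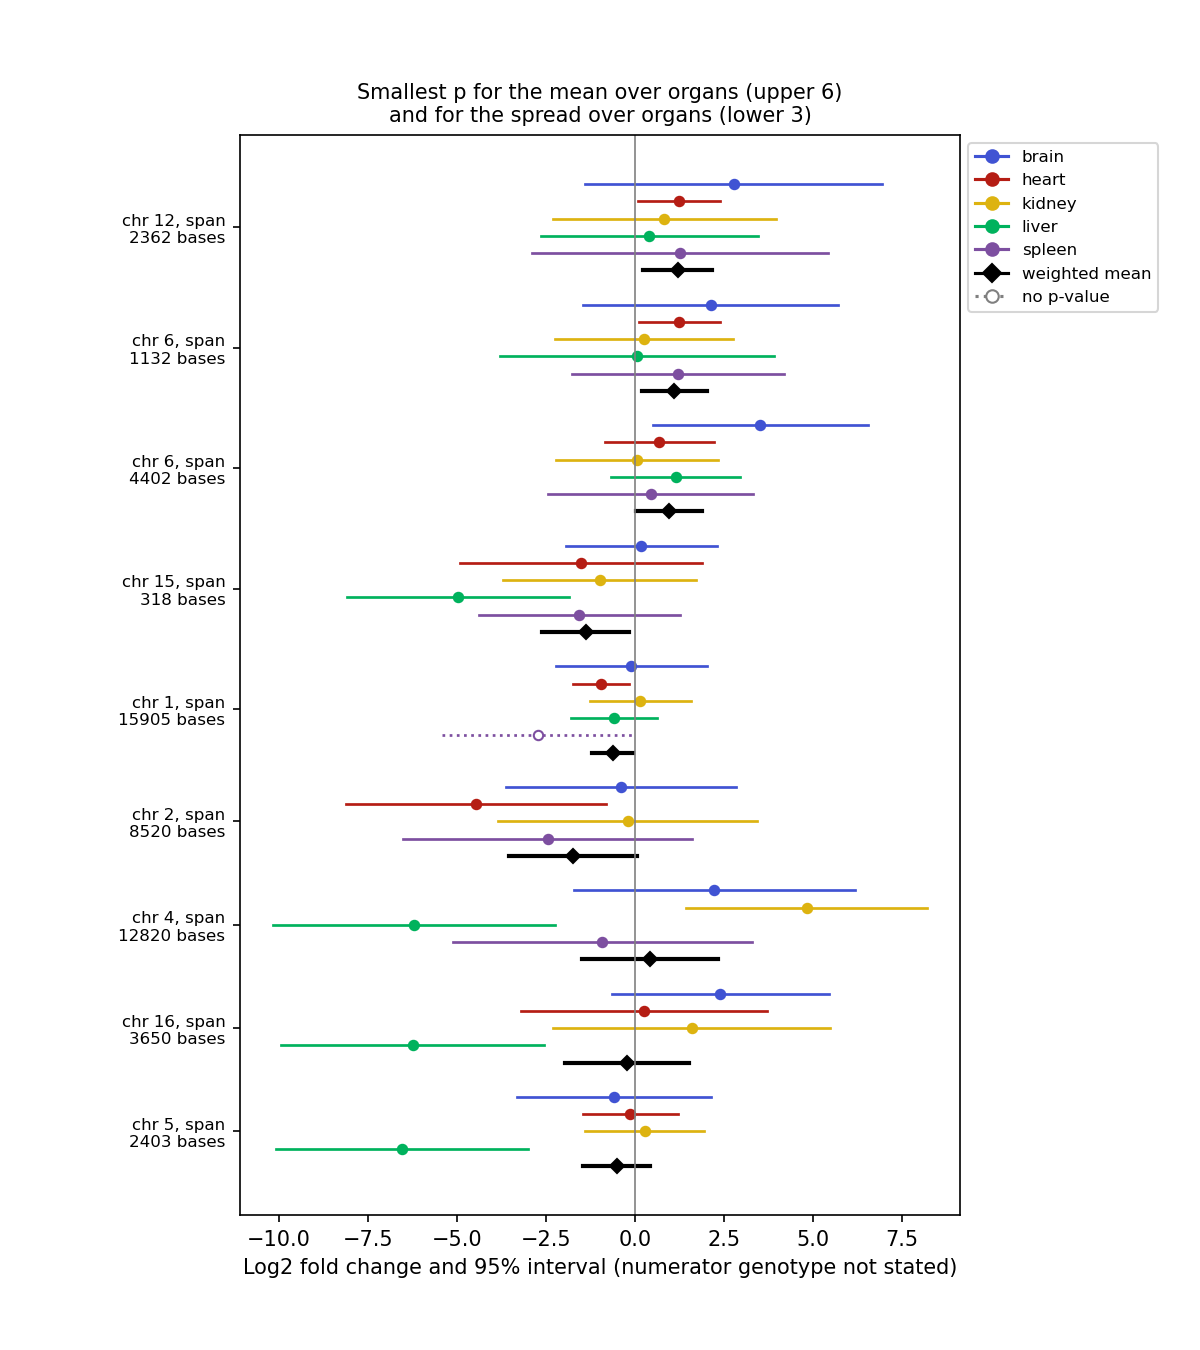
Deposited log2 fold change with its 95% interval in each organ, and the weighted mean over organs, for the 3 members per sign with the smallest p for the weighted mean (upper 6) and the 3 with the smallest p for the spread over organs (lower 3), named by chromosome and span. Open points on dotted lines have no p and are not in the mean; the numerator genotype is not stated. In the lower 3 the liver estimate lies below -6 with an interval apart from 0, and is the lowest of its circRNA.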

How the data were processed

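CircRNA sequencing covered 5 organs of 6 mice, 30 libraries and 60 samples in 2 batches. The files hold 1 table of the authors' comparison per organ. Named in the submitters' processing notes, without roles, are BWA 0.7.17-r1188, DESeq2 and GRCm39. The sources used here do not give the circRNA caller, the limit of the filter on low expression or the treatment of the batches. If both batches of a library entered as separate samples, the errors would be too small. Per the file headers, the deposited tables give a mean normalized count (a signal over the libraries of the organ), a log2 fold change with its SE, a Wald test score, a p-value and an adjusted p-value. These were taken as deposited: without values per library nothing could be refitted. Entries with no p were left out of tests and weighted means.

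Members were found by exact name with Python 3.11.15, pandas 2.3.3, numpy 2.4.6 and scipy 1.17.1, and figures drawn with matplotlib 3.10.9. Percentiles, spans, loci, 95% intervals (estimate ± 1.96 SE), weighted means and Cochran's Q were computed from the deposited values. The last 2 were also run on simulated data with independent errors and large planted changes. That run cannot show how they behave with dependent errors or small changes. Benjamini-Hochberg adjustment ran over all 969 circRNAs with at least 2 estimates. The members and lists were chosen with earlier results of these data known.

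CircRNAs were named by rule: the 5 with the highest mean percentile, the leader of each organ, the 5 with the widest range of percentiles, the 3 longest and shortest, the loci with most members, the smallest p per sign in each organ, those with p below 0.05 in 2 organs, the 3 smallest p per sign of the weighted mean, the 3 of the spread, and the 5 smallest SEs. An adjusted p below 0.05 in an organ would also have named a member. The split by listing in spleen was chosen after its values were seen. The gene table and genome at hand are on another build than the files, so host genes, gene lists and sequences were not used here.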

Additional observations from a re-analysis of the deposited data

How the results depend on the processing

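Of 182 alternative values 26, given here, moved. Most of the 182 are counts, percentiles, spans or ratios of spans, which cannot change sign. Among the named weighted means and the differences of median log2 fold change, none changed sign. For the 6 weighted means named by sign, judged by direction and adjusted p alone, 6 of 60 alternatives changed the value by over 1.5 times: chr15:61978997-61979314 without brain (-2.15) and without liver (-0.73), chr1:87291826-87307730 without heart (-0.25) and as a plain mean (-0.37), and chr2:69744758-69753277 without heart and without folds very large for the mean count (-0.87 in both). The count of members at an unadjusted p below 0.05 moved as follows. In brain it was 5, and 1 with members in brain plus 3 tables only. In heart it was 8, with 5 among members in all 5 tables and 3 in brain plus 3. In kidney it was 3, then 0 in all 5 tables, and 1 both with a mean normalized count of at least 5 and without folds very large for the mean count. In liver it was 23, then 13 in all 5 tables, 10 in brain plus 3 and 5 without those large folds. In spleen it was 2, and 1 under each of these 4 alternatives. At an adjusted p below 0.1 (authors' DESeq2), 6 liver members passed (2.71%, beside 2.90% of the table), 5 of them with such large folds. For the weighted mean over organs the count was 6, then 2 without heart, 10 without kidney and 14 with SEs scaled by the SD of the Wald statistics (0.68 in kidney to 1.01 in liver). For the spread it was 9, then 2 without liver, 0 without the large folds and 18 with scaled SEs, where 1 member, chr4:140895024-140907843, passed at an adjusted p of 0.0189. Leaving out large folds lowers such counts in part by definition. The members' median span was 0.594 of that of the other brain circRNAs, and 0.944 in quartile 2 of brain abundance. The median log2 fold change of members minus others was 0.72 in brain, with 0.43 and 1.13 in quartiles 2 and 3. In spleen it was -1.13, with -0.65 and -2.14 in quartiles 1 and 3 (numbered from the lowest); these were chosen after seeing the data. The cause was not tested. Matching ends within 5 bases gave 292 members. No paired analysis was possible because the tables hold no values per library, though mouse numbers are shared across organs; leaving out each mouse and a block for brothers were not run for the same reason, nor the part on host genes and sequence. Precision is low for most members, with a median half-width of the 95% interval of 2.95 log2 units in brain; depth per library is unknown.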
